A study of Mus musculus with 12 samples.

Results

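Open chromatin of resident and of recruited macrophages of the fatty, inflamed mouse liver was compared through 2 deposited ATAC-seq peak lists. The KC-N list came from liver cells labelled F4/80-Hi Tim4-Pos Kupffer cells, and the Ly6CLo-RM list from liver macrophages labelled recruited, Cd11b-Hi and Ly6CLo. Both groups were C57BL/6J mice on a NASH diet, which models nonalcoholic steatohepatitis; no source used here gives age, sex, the length of the diet or whether animals were pooled. Each list stands for both libraries of its group, so it carries no replicate error. A peak was taken as specific to its list where every peak centre of the other one lay over 1000 bp away. KC-N held 10033 such peaks among 50550 (19.8%, 95% Wilson interval 19.5% to 20.2%), and Ly6CLo-RM held 13887 among 54621 (25.4%, 25.1% to 25.8%). Together these are 23920 of 105171 peaks of the 2 lists and of 334073 in the series.

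The other 4 lists of the series were not used to choose these peaks and served as a separate readout. They are Tim4-positive Kupffer cells of the control diet (KC-H) and, from NASH-diet mice, Tim4-negative F4/80-Hi Kupffer cells (KN-RM), Cd11b-Hi Ly6CHi recruited liver macrophages (Ly6CHi-RM) and Ly6C-Hi blood monocytes. They ranged in length from 34293 peaks in KN-RM to 69616 in blood, and a shorter list holds fewer of any set of peaks. All groups shared the strain, and all liver cells shared perfusion, digestion with flavopiridol present and flow sorting.

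Kupffer cells are the resident macrophages of the liver sinusoids. They take up dead cells, bacteria, iron and lipids, and their identity genes depend on the nuclear receptor LXR alpha together with TGF-beta, BMP and Notch signals from the niche. Blood monocytes that enter an injured liver first carry high Ly6C and can lose it as they mature, and some of them take over the Kupffer cell niche. ATAC-seq cuts accessible DNA with a transposase, so a peak marks an open promoter, enhancer or insulator and does not measure expression.

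Promoters with a list-specific peak at the gene start give the DNA of a small part of these differences. Only 4.71% of the KC-N-specific and 7.45% of the Ly6CLo-RM-specific peaks lay within 1 kb of a gene start. The sequences are the RefSeq promoter windows of GRCm38.p6, from 250 bases before to 50 after a gene start, written 5′ to 3′ on the gene's strand. The first set holds windows with the centre of a KC-N-specific peak: Tspan15 (a tetraspanin gene), at chr10:62231169-62231468 on the minus strand; Cd5l (the macrophage-secreted protein AIM), at chr3:87357631-87357930 on the plus strand; Mmp12 (macrophage elastase), at chr9:7347124-7347423, plus; Trem2 (a lipid receptor of macrophages), at chr17:48346151-48346450, plus; and Timd4 (Tim4, the receptor used in the sort), at chr11:46810549-46810848, plus. Capitals mark matches to the motifs listed further below: the AP-1 motif in Tspan15 and Mmp12, AP-1 and C/EBP in Trem2, and IRF in Timd4, with no match in Cd5l.
Tspan15: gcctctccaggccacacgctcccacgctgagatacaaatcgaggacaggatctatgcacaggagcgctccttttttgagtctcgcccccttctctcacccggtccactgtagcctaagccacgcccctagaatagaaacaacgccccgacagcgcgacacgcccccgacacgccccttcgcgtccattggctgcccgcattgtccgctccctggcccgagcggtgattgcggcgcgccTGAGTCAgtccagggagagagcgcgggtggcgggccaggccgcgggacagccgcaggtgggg
Cd5l: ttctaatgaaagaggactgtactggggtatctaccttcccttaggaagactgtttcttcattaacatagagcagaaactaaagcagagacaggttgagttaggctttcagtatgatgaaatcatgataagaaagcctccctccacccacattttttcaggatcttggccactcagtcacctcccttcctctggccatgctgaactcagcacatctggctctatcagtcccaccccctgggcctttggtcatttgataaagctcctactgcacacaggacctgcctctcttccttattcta
Mmp12: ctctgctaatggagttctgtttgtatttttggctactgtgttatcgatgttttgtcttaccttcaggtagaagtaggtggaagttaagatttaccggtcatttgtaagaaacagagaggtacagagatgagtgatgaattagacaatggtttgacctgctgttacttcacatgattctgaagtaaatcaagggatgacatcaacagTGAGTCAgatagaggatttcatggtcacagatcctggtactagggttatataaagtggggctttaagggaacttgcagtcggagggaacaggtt
Trem2: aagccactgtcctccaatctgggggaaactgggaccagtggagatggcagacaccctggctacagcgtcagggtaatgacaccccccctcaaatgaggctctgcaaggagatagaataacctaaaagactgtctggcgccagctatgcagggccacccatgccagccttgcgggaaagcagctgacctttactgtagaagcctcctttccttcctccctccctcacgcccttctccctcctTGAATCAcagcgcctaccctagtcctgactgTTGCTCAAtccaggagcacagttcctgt
Timd4: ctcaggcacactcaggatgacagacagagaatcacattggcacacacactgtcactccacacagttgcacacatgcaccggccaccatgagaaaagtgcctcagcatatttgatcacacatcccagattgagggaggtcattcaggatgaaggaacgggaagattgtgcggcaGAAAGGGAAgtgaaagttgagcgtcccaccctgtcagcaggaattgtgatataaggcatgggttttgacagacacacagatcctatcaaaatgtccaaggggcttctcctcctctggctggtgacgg

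The second set holds windows with the centre of a Ly6CLo-RM-specific peak: H2-DMb2 (a chain of H2-DM, which loads peptides on MHC class II), at chr17:34144999-34145298, plus; F10 (coagulation factor X), at chr8:13037058-13037357, plus; S100a4 (a calcium-binding protein of migrating cells), at chr3:90603520-90603819, plus; and Ly6c2 (a gene of the Ly6C antigen), at chr15:75111888-75112187, minus. Capitals mark the NRF2 and MAF motif in H2-DMb2, the PU.1 and RBPJ motifs in S100a4, and PU.1, RBPJ and RUNX motifs in Ly6c2, with no match in F10. Tspan15, H2-DMb2 and F10 were among the 4 promoters of highest peak score on their side. The other 6 were picked after their values were seen, as members of the gene lists. Further gene list members with such a peak were left out, among them S100a8 (score 34) and Il1b (27) on the KC-N side. On the Ly6CLo-RM side those left out included Cd9 (22) and Kdr (22). H2-DMb2 and Ly6c2 have near-identical neighbours, H2-DMb1 and Ly6c1, so reads of the pairs may have been split or lost.
H2-DMb2: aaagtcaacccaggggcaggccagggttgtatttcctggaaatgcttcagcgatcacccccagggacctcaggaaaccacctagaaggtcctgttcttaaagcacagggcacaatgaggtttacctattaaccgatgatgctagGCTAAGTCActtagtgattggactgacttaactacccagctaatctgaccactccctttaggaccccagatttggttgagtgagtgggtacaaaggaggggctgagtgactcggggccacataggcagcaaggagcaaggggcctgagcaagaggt
F10: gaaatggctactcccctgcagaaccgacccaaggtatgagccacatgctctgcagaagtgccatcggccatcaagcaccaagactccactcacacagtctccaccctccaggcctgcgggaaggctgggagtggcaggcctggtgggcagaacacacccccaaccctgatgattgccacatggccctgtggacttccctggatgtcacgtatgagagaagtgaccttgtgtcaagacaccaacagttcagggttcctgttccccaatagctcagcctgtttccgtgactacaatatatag
S100a4: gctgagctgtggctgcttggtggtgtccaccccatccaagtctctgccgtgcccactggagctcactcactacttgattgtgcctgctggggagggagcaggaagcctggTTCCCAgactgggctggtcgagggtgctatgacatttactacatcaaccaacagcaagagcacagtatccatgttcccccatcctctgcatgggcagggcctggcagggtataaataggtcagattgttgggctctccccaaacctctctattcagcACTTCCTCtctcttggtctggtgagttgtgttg
Ly6c2: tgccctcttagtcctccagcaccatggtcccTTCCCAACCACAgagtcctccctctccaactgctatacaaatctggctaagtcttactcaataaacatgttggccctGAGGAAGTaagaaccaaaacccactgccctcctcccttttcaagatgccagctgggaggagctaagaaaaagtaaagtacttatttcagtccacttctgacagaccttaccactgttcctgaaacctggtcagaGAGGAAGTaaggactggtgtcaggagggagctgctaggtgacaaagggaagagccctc

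The peaks over these windows differed in height and in the lists that held them. In Tspan15 the KC-N peak had a score of 93, on the authors' whole-number scale, against a list median of 38, and all 4 further lists held it. The Cd5l peak (score 71) was found in KC-H and KN-RM and in neither Ly6CHi-RM nor blood, and the Mmp12 peak (score 62) was found in KN-RM but not in KC-H, Ly6CHi-RM or blood. The Trem2 peak (score 59) was found in all 4. The Timd4 peak had a score of 26 and was found in KC-H and in none of the other 3. The H2-DMb2 peak of Ly6CLo-RM had a score of 81, against a list median of 40, and none of the 4 further lists held it. The peaks of F10 (score 80), S100a4 (49) and Ly6c2 (39) were each found in Ly6CHi-RM and blood and in neither KC-H nor KN-RM. The other promoters of highest score were 1700003F12Rik (117), Gm31623 (104) and Gm30926 (87) on the KC-N side, and Gm30369 (90) and Fbxl2 (74) on the Ly6CLo-RM side.

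The labels were first set against markers of the sorted cells, counting the peaks assigned to each gene. Clec4f, which encodes a Kupffer cell lectin, had 7 peaks in KC-N and 0 in Ly6CLo-RM. Cd5l had 13 peaks in KC-N and 1 in Ly6CLo-RM, and the scavenger receptor gene Marco had 7 in KC-N and 1 in Ly6CLo-RM. Vsig4, a complement receptor gene, had 2 and 1, and Adgre1, which encodes F4/80, had 4 and 5. Timd4 itself had 1 peak in KC-N and 1 in Ly6CLo-RM, against 17 in KC-H. The KC-N peak lay 0.143 kb from the gene start and the Ly6CLo-RM peak 14.9 kb from it, and each was list-specific, so the counts are equal but the positions differ. Markers of recruited cells were uneven. Itgam, which encodes CD11b, had 5 and 9 peaks, and H2-Ab1, an MHC class II gene, had 4 and 15. Ly6c2 had 3 and 4, while Cx3cr1 had 6 in each list, Itgax had 5 in each, and the monocyte chemokine receptor gene Ccr2 had 4 and 2. In sorted bulk cells, fewer cells with an open site and a site less open per cell cannot be told apart.

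**Figure D1:**
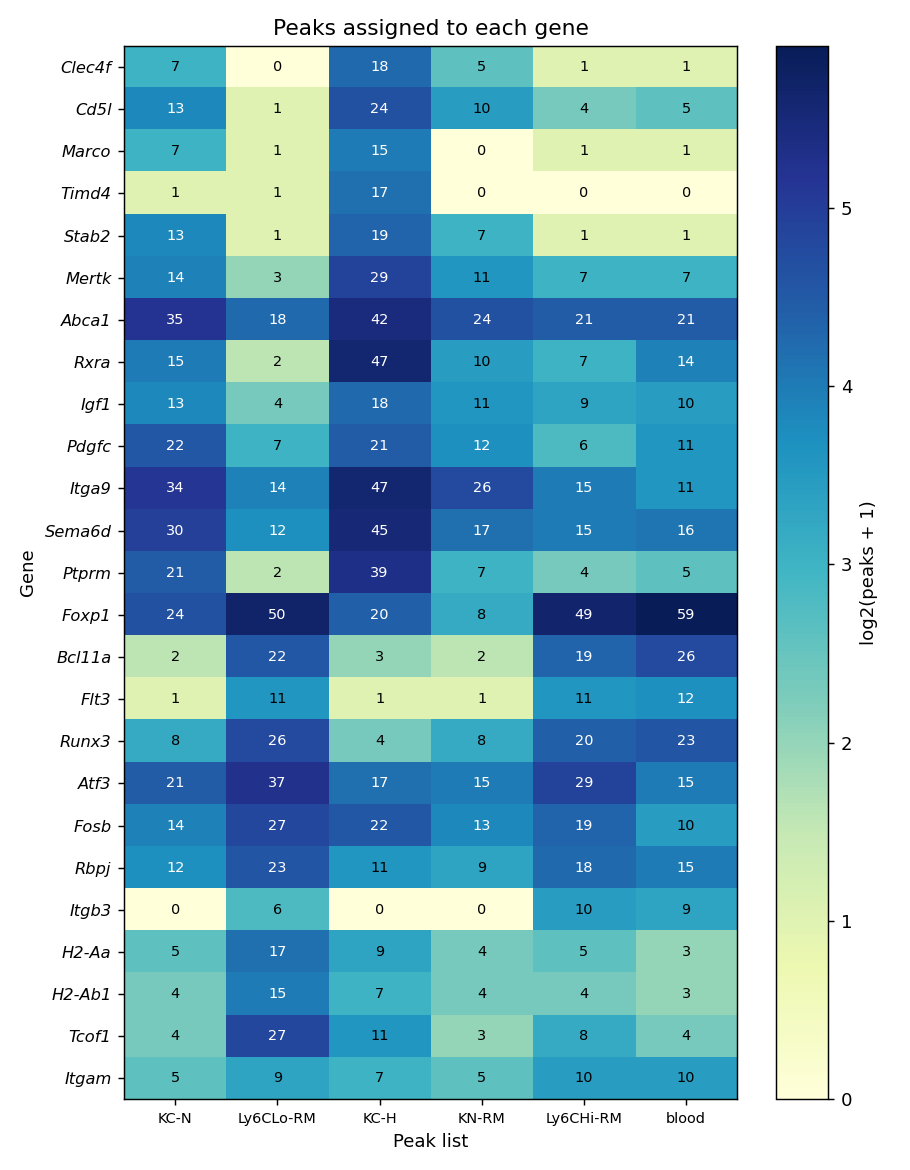
Number of peaks assigned to each of 25 genes (rows) in each of the 6 peak lists (columns); the colour is log2(peaks + 1) and the printed number is the count. Clec4f reads 7 in KC-N and 0 in Ly6CLo-RM, Itgb3 reads 0 and 6, and Timd4 reads 1 in both but 17 in KC-H.

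Most list-specific peaks were low ones. Their median score was 28 in KC-N against 43 for its shared peaks, and 26 in Ly6CLo-RM against 49 for its shared peaks. Among KC-N peaks the list-specific share was 41.8% in the lowest of 10 score classes and 0.514% in the highest. The Ly6CLo-RM list ran from 60.7% to 0.330%. In the best-scored 50% of each list, 1988 of 25275 KC-N peaks (7.87%, 7.54% to 8.20%) and 2184 of 27310 Ly6CLo-RM peaks (8%, 7.68% to 8.32%) were list-specific, shares whose intervals overlap. Ly6CLo-RM had the higher share in the 7 lowest classes and KC-N in the 3 highest.

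**Figure D2:**
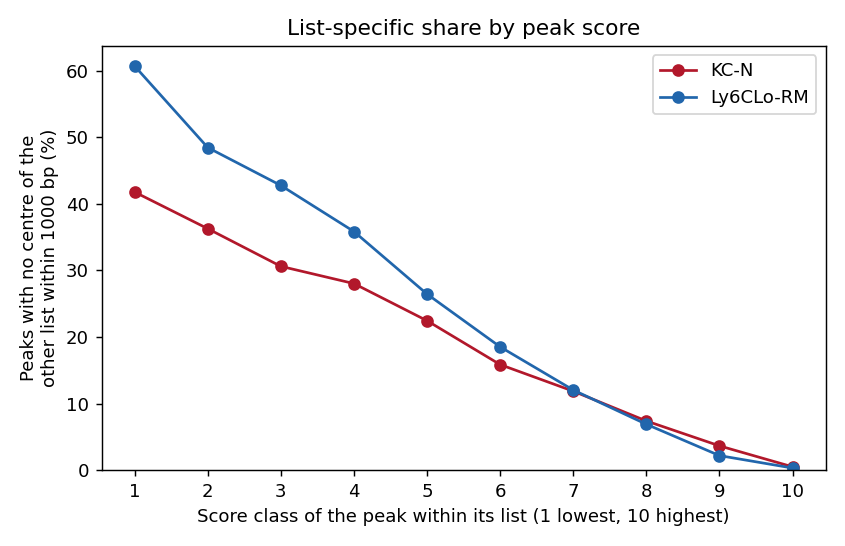
Share of peaks (%) that were list-specific, by score class within each list, for KC-N and Ly6CLo-RM. Both lines fall from the lowest class to the highest, where they end at 0.514% and 0.330%, and Ly6CLo-RM lies above KC-N in the 7 lowest classes.

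Equal length brought the sides closer. With Ly6CLo-RM reduced to its 50550 best-scored peaks, KC-N had 10888 specific peaks (21.5%, 21.2% to 21.9%) and Ly6CLo-RM had 11330 (22.4%, 22.1% to 22.8%). All 10033 KC-N-specific peaks of the deposited lists were among the 10888 by construction, and 11330 of 13887 Ly6CLo-RM-specific peaks (81.6%) were kept. Just inside the 1000 bp limit, from 900 to 1000 bp, lay 204 KC-N and 279 Ly6CLo-RM peaks, and 211 and 213 lay at 1000 to 1100 bp. The specific peaks were a median of 8.50 kb from the other list in KC-N and 8.97 kb in Ly6CLo-RM. Depth per library is unknown. The authors' tag counts below 40 moved in steps of 0.481 in KC-N and 0.612 in Ly6CLo-RM, and the lowest peak held 29 and 30 such steps.

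Where the peaks occurred in the 4 further lists split along the sort. Of the KC-N-specific peaks, 77.7% (76.9% to 78.5%) were found in KC-H, 34.4% (33.5% to 35.4%) in KN-RM, 31.1% (30.2% to 32.0%) in Ly6CHi-RM and 37.6% (36.6% to 38.5%) in blood. Peaks shared by KC-N and Ly6CLo-RM, weighted to the same score classes, were found at 89.0%, 66.6%, 94.7% and 92.2%. The specific peaks were nearest to this level in KC-H and farthest from it in Ly6CHi-RM and blood. Shared peaks are by rule in both lists and specific peaks are missing from the other list, so such gaps may follow from the choice of peaks. The weighting matched scores only: 28.3% of the weighted shared peaks of KC-N lay within 1 kb of a gene start, against 4.71% of the specific ones. Of the Ly6CLo-RM-specific peaks, 72.2% (71.4% to 72.9%) were found in Ly6CHi-RM, 69.5% (68.7% to 70.3%) in blood, 29.6% (28.8% to 30.3%) in KC-H and 4.96% (4.61% to 5.34%) in KN-RM. The weighted shared peaks were at 92.5%, 89.8%, 90.6% and 67.5%. KN-RM is the shortest list, yet its share of KC-N-specific peaks was 34.4% and of Ly6CLo-RM-specific peaks 4.96%, with intervals far apart. Among the best-scored 50%, KN-RM held 78.7% of the KC-N-specific peaks and 9.11% of the Ly6CLo-RM-specific ones.

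**Figure D3:**
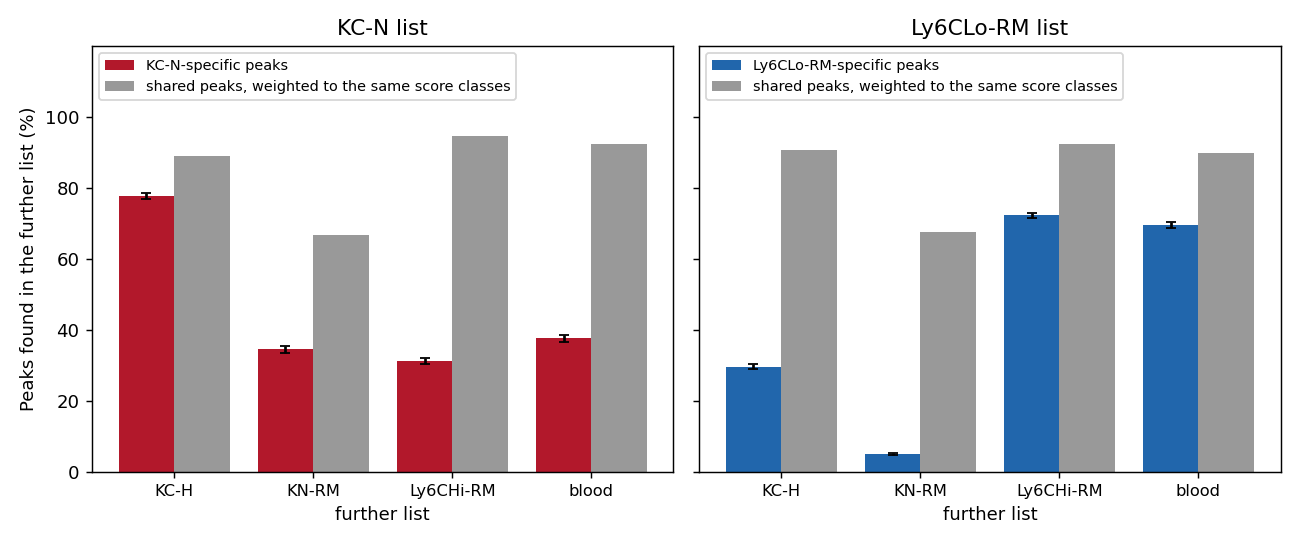
Share (%) of list-specific peaks found in each of 4 further lists, for KC-N (left panel) and Ly6CLo-RM (right panel), beside shared peaks weighted to the same score classes (grey); error bars are 95% Wilson intervals and cover counting error only. KC-N-specific peaks reach 77.7% in KC-H and 34.4% in KN-RM, and Ly6CLo-RM-specific peaks reach 72.2% in Ly6CHi-RM and 4.96% in KN-RM.

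Combining the lists gave 4482 KC-N-specific peaks (44.7%) that were in KC-H or KN-RM and in neither Ly6CHi-RM nor blood. The reverse pattern held 634 (6.32%), 3624 (36.1%) were in lists of both kinds and 1293 (12.9%) were in no other list. On the Ly6CLo-RM side, 6849 (49.3%) were in Ly6CHi-RM or blood and in neither KC-H nor KN-RM, 295 (2.12%) had the reverse pattern, 4049 (29.2%) were in lists of both kinds and 2694 (19.4%) were in no other list. The 1638 KC-N-specific peaks found in KC-H and KN-RM alone were led by Itga9 and Sema6d with 10 each, Frmd4a with 9, and Cd38, Pkp4, Ptprm and Wdfy3 with 8 each. The 5214 Ly6CLo-RM-specific peaks found in Ly6CHi-RM and blood alone were led by Gfod1 with 15, Foxp1 with 14, and Pde4d and St8sia1 with 13 each. Peaks in no other list were led on the KC-N side by Fat3 and the cholesterol ester hydrolase gene Nceh1 with 5 each, and on the Ly6CLo-RM side by Etv6 and Tcof1 with 9 each and by Bhlhe40 and Kit with 7 each. These leaders were read from the counts after the values were seen.

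Few peaks of either set lay near gene starts. Within 1 kb of a gene start were 4.71% (4.32% to 5.15%) of the KC-N-specific peaks, against 37.1% of the peaks of that list shared with Ly6CLo-RM and 28.3% of these after weighting to the same scores. The Ly6CLo-RM-specific peaks had 7.45% (7.03% to 7.90%) near starts, against 37.3% and 25.5%. The median distance to a start was 22.8 kb for KC-N-specific and 16.2 kb for Ly6CLo-RM-specific peaks. Within genes lay 58.0% and 53.0% of the specific peaks, near the 56.1% and 56.3% of the shared peaks of KC-N and Ly6CLo-RM. On chromosome X the specific share was 15.2% in KC-N and 29.8% in Ly6CLo-RM, against 15.9% to 22.6% and 22.7% to 28.9% over the autosomes.

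Counted per gene, the background leaned to Ly6CLo-RM. Of 14450 protein-coding genes with a peak of either list, 20.6% had more KC-N-specific peaks, 35.6% had more Ly6CLo-RM-specific peaks, and the median difference was 0. Summed over these genes were 9307 KC-N-specific and 13133 Ly6CLo-RM-specific peaks, so 41.5% were of KC-N, and 10100 and 10715 at equal length. Of the gene lists, the hepatocyte and stellate cell (42.9% each), TGF-beta, BMP and Notch (39.0%), transcription factor (46.5%) and chemokine ligand (35.3%) lists were nearest to 41.5%. The gene lists are read against these shares, and their members were chosen with results of these data known.

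Kupffer cell identity genes lay on the KC-N side: 11 of 15 genes had more KC-N-specific and 1 had more Ly6CLo-RM-specific peaks, with 38 peaks against 3 and a median difference of 1. Cd5l had 11 KC-N-specific and 0 Ly6CLo-RM-specific peaks, Clec4f had 7 and 0, Marco 5 and 0, and Clec1b, which encodes the lectin receptor CLEC-2, 3 and 0. Of the 38 peaks, 37 were found in KC-H, 20 in KN-RM, 9 in Ly6CHi-RM and 10 in blood. All 7 Clec4f peaks recurred in KC-H and 6 in KN-RM, whereas all 5 Marco peaks recurred in KC-H and 0 in KN-RM. The highest Clec4f peak, at chr6:83631908-83632108 with a score of 69, lay 12.5 kb outside the gene.

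Genes of complement and dead cell uptake had 49 KC-N-specific peaks and 5 of Ly6CLo-RM, with more on the KC-N side at 11 of 17 genes and on the Ly6CLo-RM side at 1. Stab2, a scavenger receptor gene, had 12 and 0, Mertk, an uptake receptor gene, had 10 and 0, and Gas6, which encodes a ligand of Mertk, had 4 and 0. Of the 49 peaks, 46 were found in KC-H and 23 in KN-RM. Stab2 is also a gene of liver sinusoidal endothelial cells, whose list had 19 and 12 peaks: Cdh5, an endothelial cadherin gene, had 3 and 0, Kdr 0 and 4, and Pecam1 1 and 4. At Stab2, 11 of the 12 peaks were found in KC-H, 6 in KN-RM, 0 in Ly6CHi-RM and 0 in blood. The part of endothelial DNA in the Stab2 count was not tested.

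Targets of the nuclear receptor LXR, which senses oxysterols, had 39 KC-N-specific peaks and 15 of Ly6CLo-RM, and 8 of 15 genes against 5. The cholesterol exporter gene Abca1 had 12 and 0, with its highest peak inside the gene at chr4:53081972-53082172 (score 102), and the desaturase gene Scd1 had 4 and 0. In the opposite direction, Arl4c, a small GTPase gene, had 0 and 5. Mertk, also an LXR target, adds its 10 peaks here too. Of the 39 peaks, 37 were found in KC-H and 26 in KN-RM. Lysosome genes had 30 and 12: the vacuolar ATPase subunit gene Atp6v0d2 had 8 and 1, Ctsl 4 and 0, and Ctsb 3 and 0, both cathepsin genes. The transcription factor gene Tfec had 8 and 0 and is counted in this list and among transcription factors.

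Growth factor and matrix genes had 39 KC-N-specific and 17 Ly6CLo-RM-specific peaks, with 11 of 19 genes against 6. Pdgfc, a growth factor for mesenchymal cells, had 11 and 0, of which 9 were found in KC-H and 7 in KN-RM. The insulin-like growth factor gene Igf1 had 9 and 0, with all 9 in KC-H, and Hbegf had 3 and 0. Osm, which encodes the cytokine oncostatin M, had 0 and 4, all 4 found in Ly6CHi-RM.

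Genes of the Trem2-type lipid-associated macrophage state were divided, with 41 KC-N-specific and 31 Ly6CLo-RM-specific peaks, and more on the KC-N side at 10 of 18 genes and on the Ly6CLo-RM side at 4. The difference of 10 was 17 at equal length (44 and 27) and 20 by nearest gene start, but 2 in the best-scored 50% (11 and 9) and 2 with a 20 kb gene window. Lpl, which encodes lipoprotein lipase, had 7 and 0, and the saposin precursor gene Psap 4 and 0. Cd9, a tetraspanin gene, had 7 and 4, and Atf3, a stress-induced transcription factor gene, had 4 and 18. Atf3 thus held 18 of the 31 peaks on the Ly6CLo-RM side. Of the 41 KC-N-specific peaks, 19 were found in KC-H, a smaller part than the 37 of 38 at Kupffer cell identity genes; this difference was not tested. Trem2 had 4 and 3 peaks in all, of which 1 KC-N peak was list-specific.

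**Figure D4:**
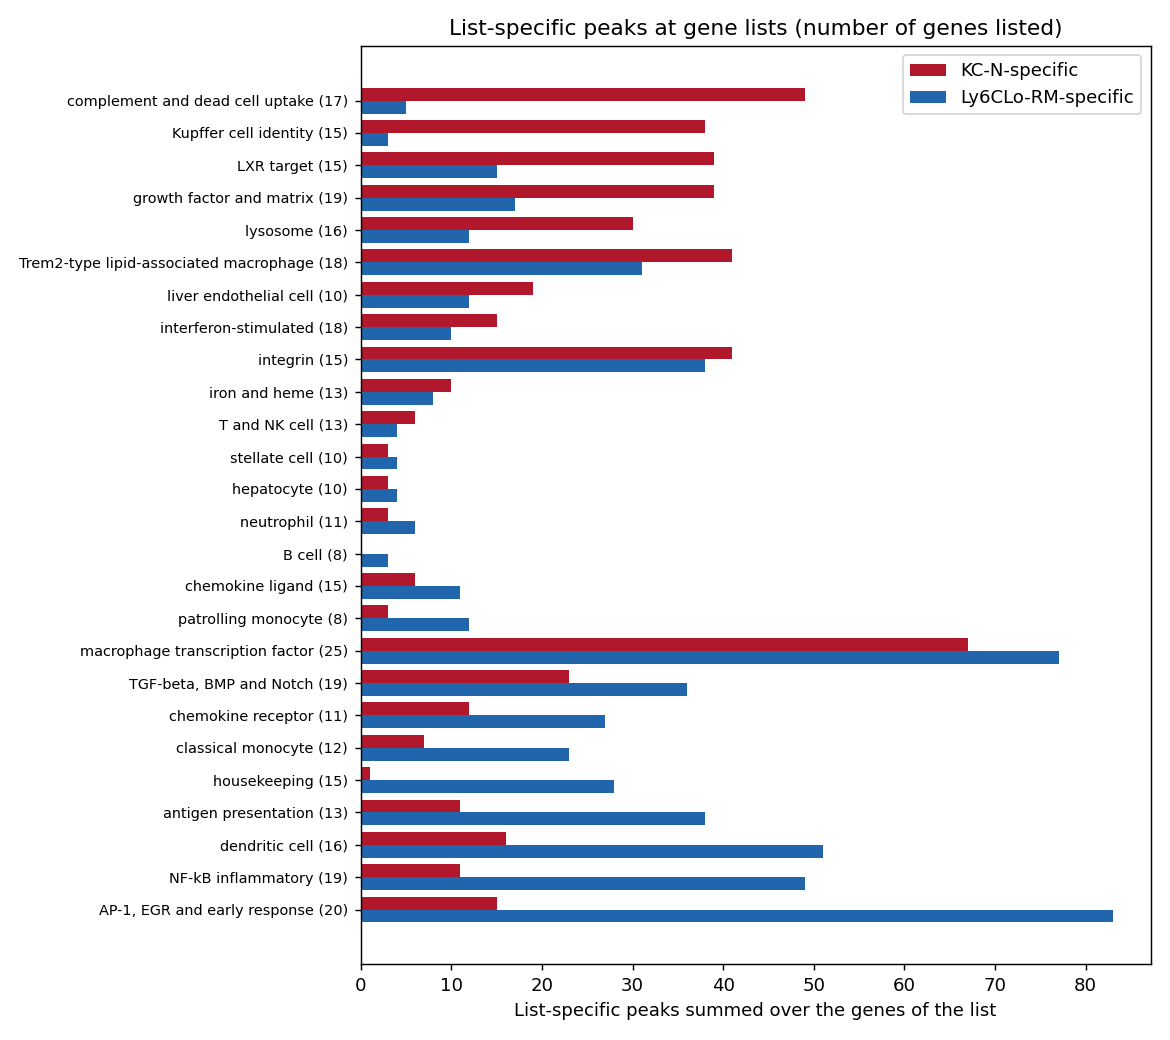
List-specific peaks summed over the genes of 26 lists (number of genes listed in brackets), KC-N-specific above Ly6CLo-RM-specific in each pair. Complement and uptake genes have 49 and 5, Kupffer cell identity genes 38 and 3, early response genes 15 and 83, and the housekeeping control 1 and 28.

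Early response genes, induced within minutes of a stimulus, had 15 KC-N-specific and 83 Ly6CLo-RM-specific peaks, with 3 of 20 genes more on the KC-N side and 13 on the Ly6CLo-RM side. Atf3, counted above in the Trem2-type list, is also in this list and adds its 4 and 18 peaks here too. Btg2, an antiproliferative gene, had 1 and 13. The AP-1 subunit genes Fos and Fosb had 1 and 11, and 0 and 8. Of the 83 peaks, 68 were found in Ly6CHi-RM, 31 in blood, 34 in KC-H and 7 in KN-RM. All 8 Fosb peaks were found in KC-H, the highest at chr7:19300472-19300672 with a score of 94, and 0 in KN-RM. NF-kB inflammatory genes had 11 and 49, with 1 gene against 9 of 19: Nfkbia, the inhibitor IkB alpha, had 0 and 9, Nfkbiz 1 and 9, Tnfaip3, which encodes A20, 2 and 10, and Nfkb1 1 and 7.

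Housekeeping genes, listed as a control, also lay on this side, with 1 KC-N-specific and 28 Ly6CLo-RM-specific peaks and with 0 genes against 7 of 15. The 14-3-3 gene Ywhaz had 1 and 9, the actin gene Actb 0 and 5, and Eef1a1 0 and 1. The lean of each list to Ly6CLo-RM is therefore set beside a control that leaned the same way, and their common part was not tested.

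Antigen presentation genes had 11 KC-N-specific and 38 Ly6CLo-RM-specific peaks, with 2 of 13 genes against 9. The MHC class II genes H2-Aa, H2-Ab1 and H2-Eb1 had 0 KC-N-specific peaks each and 8, 6 and 5 of Ly6CLo-RM. Cd74, the invariant chain gene, had 1 and 5. Of the 38 peaks, 15 were found in KC-H, 2 in KN-RM, 13 in Ly6CHi-RM and 7 in blood. At H2-Aa, 5 of 8 were found in KC-H, 2 in Ly6CHi-RM and 0 in blood.

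Dendritic cell genes had 16 KC-N-specific and 51 Ly6CLo-RM-specific peaks over the 14 of 16 genes with a peak, with 3 genes against 8. Bcl11a, a transcription factor gene of plasmacytoid dendritic cells and lymphocytes, had 0 and 18. The cytokine receptor gene Flt3 had 0 and 10, and Ccr7, the receptor for lymph node homing, had 0 and 5. Bcl11a and Flt3 thus held most of the 51. Irf8, needed for monocytes and dendritic cells, went the other way with 8 and 3. Of the 10 Flt3 peaks, 8 were found in Ly6CHi-RM and 8 in blood, and of the 18 at Bcl11a, 15 and 14; the part of dendritic cells in the sorted Ly6CLo-RM cells was not tested.

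**Figure D5:**
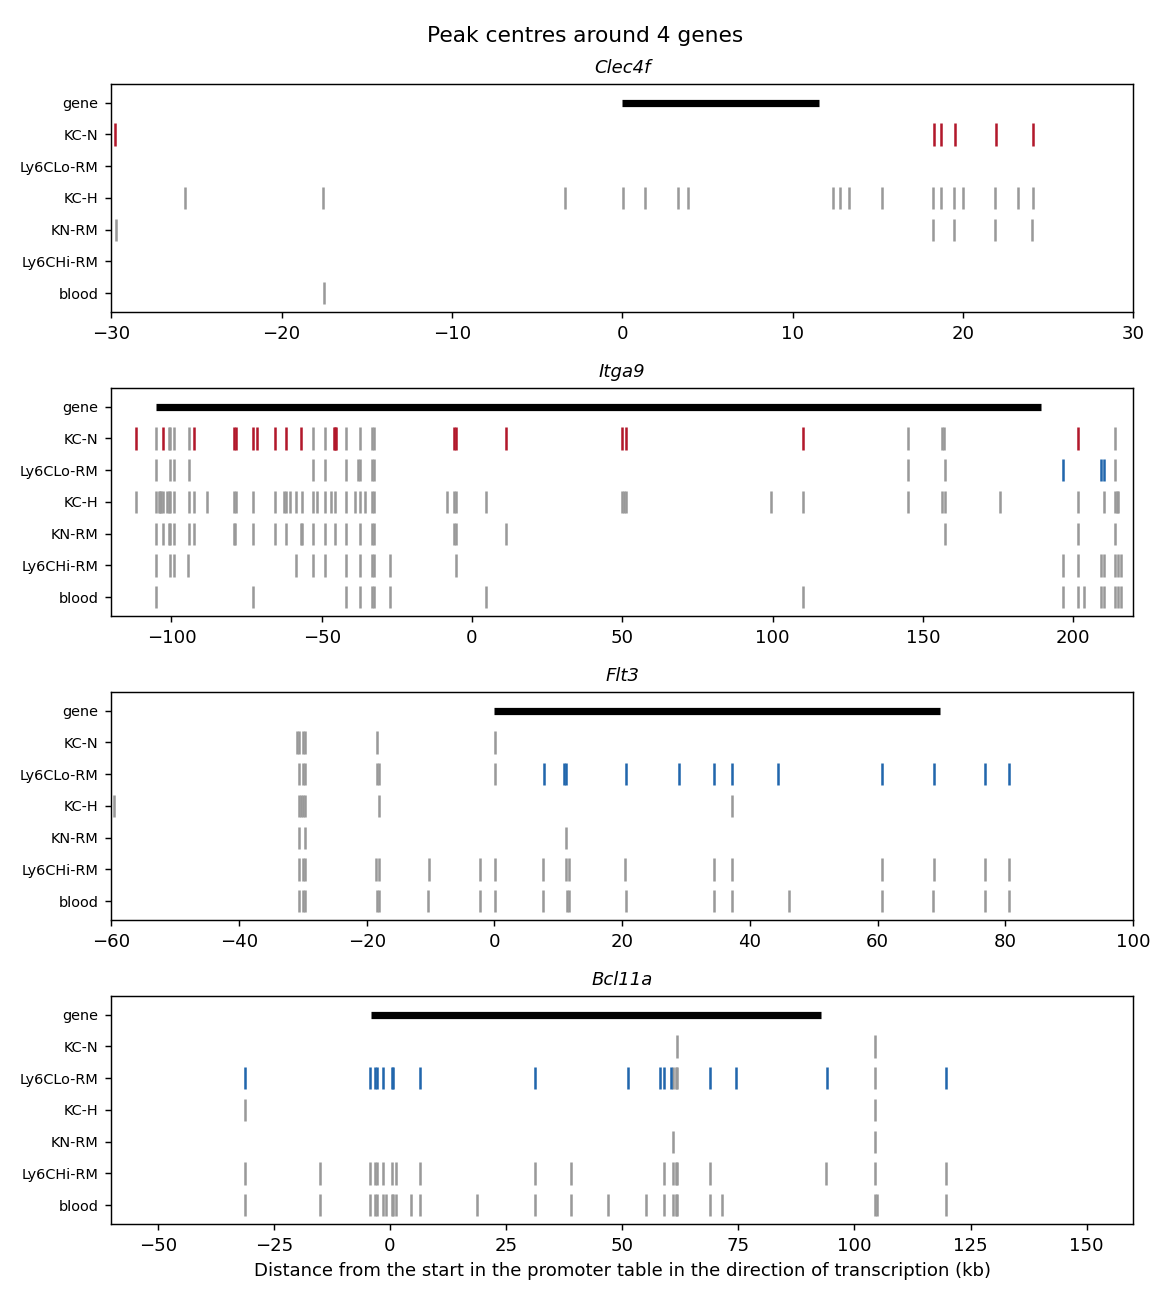
Peak centres of the 6 lists (ticks) around Clec4f, Itga9, Flt3 and Bcl11a, with the gene as a black bar; the x axis is the distance in kb from the start in the RefSeq promoter table in the direction of transcription, red ticks are KC-N-specific, blue ticks are Ly6CLo-RM-specific and grey ticks are all other peaks. The Itga9 start used lies inside the gene, whose bar begins at -105 kb. In these windows Itga9 holds 20 KC-N-specific and 3 Ly6CLo-RM-specific peaks, some assigned to neighbouring genes, and Bcl11a holds 0 and 17.

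Monocyte genes leaned to Ly6CLo-RM in small numbers. Classical monocyte genes had 7 KC-N-specific and 23 Ly6CLo-RM-specific peaks, with 2 of 11 genes against 8: the transglutaminase gene F13a1 had 0 and 4, Plac8 0 and 4, Itgam 0 and 4, and Ccr2 3 and 1. Patrolling monocyte genes had 3 and 12, with Spn, which encodes CD43, at 0 and 4, Itgal at 0 and 2, and Ace and Eno3 at 0 and 1 each. Of the 23 peaks at classical monocyte genes, 19 were found in Ly6CHi-RM, 21 in blood, 8 in KC-H and 2 in KN-RM.

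Transcription factor genes of macrophages had 67 KC-N-specific and 77 Ly6CLo-RM-specific peaks, and 74 and 73 at equal length, so the order of the sums turned with list length. Rxra, the partner of LXR in DNA binding, had 13 and 0, and all 13 were found in KC-H and 10 in KN-RM. Runx3 had 0 and 15, of which 1 was found in KC-H and 11 in Ly6CHi-RM. Bhlhe40, a basic helix-loop-helix repressor gene, had 1 and 15. Genes of TGF-beta, BMP and Notch signalling, the niche signals of Kupffer cells, had 23 and 36, and 24 and 29 at equal length, with more on each side at 8 of 19 genes. Their difference, KC-N minus Ly6CLo-RM, was -13 as deposited, -5 at equal length and -3 at equal length by tag count. As deposited, 39.0% of the list-specific peaks at these genes were of KC-N, near the 41.5% over all genes. The TGF-beta receptor gene Tgfbr2 had 3 and 0. Rbpj, which encodes the DNA-binding effector of Notch, had 0 and 10, Smad7, an inhibitor of TGF-beta signalling, 0 and 6, and Smad3 2 and 7.

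Adhesion and chemotaxis genes differed member by member. Integrin genes had 41 KC-N-specific and 38 Ly6CLo-RM-specific peaks, yet 3 of 15 genes leaned to KC-N and 11 to Ly6CLo-RM. Itga9 had 20 and 1 and Itgb5 10 and 1, and these held most of the 41. Itgb3 had 0 and 6, with 0 peaks of any kind in KC-N, KC-H and KN-RM and 10 in Ly6CHi-RM. Chemokine receptor genes had 12 and 27, with Cxcr4 at 1 and 5 and Ccr6 at 1 and 4. Chemokine ligand genes had 6 and 11: the B cell attractant gene Cxcl13 had 2 and 0 and Ccl12 1 and 0, while Ccl9 had 0 and 3 and Ccl5 0 and 2. Interferon-stimulated genes had 15 and 10, with Ifi44 and Rsad2 at 4 and 0 and at 4 and 1, Ifih1 at 3 and 1, and Socs1, an inhibitor of cytokine signalling, at 0 and 4. Iron and heme genes had 10 and 8, with the heme oxygenase gene Hmox1 and Hebp1 at 2 and 0 each, Blvrb at 1 and 0, and Bach1, a heme-regulated repressor gene, at 0 and 3.

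Among the lists of other cell types, the dendritic cell list described above held the most list-specific peaks, 16 of KC-N and 51 of Ly6CLo-RM. The liver endothelial list came next, with 19 of KC-N and 12 of Ly6CLo-RM over 8 genes with a peak. T and NK cell genes had 6 of KC-N and 4 of Ly6CLo-RM, with Cd4 at 2 and 0, Il7r at 1 and 0, and Ncr1 and Nkg7 at 0 and 1 each. B cell genes had 0 and 3, with Pax5 at 0 and 2 and Cr2 at 0 and 1. Neutrophil genes had 3 and 6, with S100a8 at 1 and 0, Retnlg at 0 and 2, and Mmp8 and Mpo at 0 and 1 each. Hepatocyte genes had 3 and 4, with Alb at 1 and 0 and Ass1 at 0 and 2, and stellate cell genes had 3 and 4, with Acta2 at 1 and 2. Peaks of any kind over the stellate list numbered 10 in each list, and over the T and NK list 18 in KC-N and 17 in Ly6CLo-RM.

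Single genes with the most KC-N-specific peaks were large genes with runs of them. Frmd4a, a scaffold gene, had 21 KC-N-specific and 5 Ly6CLo-RM-specific peaks, Itga9 20 and 1, Wdfy3, an autophagy adaptor gene, 19 and 2, and Sema6d, a semaphorin gene, 18 and 2. Ptprm, a receptor phosphatase gene, had 17 and 0, and Itpr1, a calcium channel gene, 17 and 7. Pkp4 (15 and 0), Ano6 (15 and 2), Capzb (14 and 0), Plpp3 (14 and 1), Epb41l3 (13 and 0) and Zdhhc14 (13 and 2) followed. Most of these peaks were found in KC-H, among them 19 of 21 at Frmd4a, 19 of 19 at Wdfy3, 17 of 17 at Ptprm, 14 of 17 at Itpr1 and 9 of 14 at Plpp3. The longest run, with gaps of at most 25 kb, held 18 peaks over 112 kb at Sema6d (chr2:124599105-124711310), of which 18 were found in KC-H, 11 in KN-RM, 1 in Ly6CHi-RM and 1 in blood. The next were 16 peaks at Wdfy3 (chr5:101998321-102063342) and 15 at Rmi1 and Slc28a3 (chr13:58447977-58540356), of which 9 were found in KC-H.

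Of the genes with the most Ly6CLo-RM-specific peaks, Foxp1, a forkhead factor gene, had 2 KC-N-specific and 27 Ly6CLo-RM-specific peaks, Etv6, an ETS factor gene, 3 and 18, Bcl11a 0 and 18, Atf3 4 and 18, Runx3 0 and 15 and Bhlhe40 1 and 15. Tcof1 had 0 and 21, beside Cd74, St8sia1, a ganglioside synthase gene, 2 and 18, and Gfod1 0 and 18. Arhgap26 (2 and 17), Btg1 (2 and 16) and Gse1 (7 and 15) completed the 12. The longest run held 27 peaks over 96.7 kb at Atf3 and Fam71a (chr1:191138440-191235125), of which 23 were found in Ly6CHi-RM, 6 in blood and 7 in KC-H. A run of 26 peaks at Cd74 and Tcof1 (chr18:60810565-60857048) had 15 found in KC-H, 11 in Ly6CHi-RM, 1 in KN-RM and 1 in blood. A run of 21 peaks over the MHC class II genes (chr17:34249943-34331520) had 7 found in KC-H, 3 in Ly6CHi-RM and 0 in KN-RM and blood. All 3 runs, the one at Atf3 and Fam71a included, were found less in blood than the 69.5% of all Ly6CLo-RM-specific peaks, a difference that was not tested. Shorter runs were divided: blood held 6 of 16 peaks at Bhlhe40 and Arl8b, 14 of 16 at Atp2b4 and Optc, and 12 of 15 at Bcl11a.

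The highest single KC-N-specific peak was inside Csrp1 (chr1:135746229-135746429, score 118, 6.81 kb from the nearest Ly6CLo-RM centre). Next were the promoter of 1700003F12Rik, a peak 3.45 kb outside Ttc27 (chr17:74866923-74867123, score 110), one inside Sema6d (chr2:124610335-124610535, 109) and one inside Ano6 (chr15:95822189-95822389, 108). All 5 were found in KC-H and in KN-RM, and 2 of them also in Ly6CHi-RM and blood. The highest Ly6CLo-RM-specific peak had a score of 133 and lay 93.4 kb from Nxt1 (chr2:148579105-148579305). Others were in Bhlhe40 (chr6:108665702-108665902, 121), 0.678 kb outside Itpr2 (chr6:146107521-146107721, 121), in Ror1 (chr4:100219724-100219924, 120) and 4.94 kb outside Actb (chr5:142912813-142913013, 118). All 5 were found in Ly6CHi-RM and 4 in blood, and none in KC-H.

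The promoter windows were searched for 11 motifs on both strands, each separately, so matches may overlap. They were PU.1 and ETS (GAGGAAGT), AP-1 (TGANTCA), C/EBP (TTGCNNAA), IRF (GAAANNGAA), the E-box of MiT/TFE factors (TCACGTGA), RBPJ (TGGGAA), RUNX (TGTGGTT), KLF and SP (GGGCGG), NRF2 and MAF (TGACNNNGC), EGR (GCGTGGGCG) and CRE (TGACGTCA). KC-N-specific peaks were centred in 259 windows and Ly6CLo-RM-specific peaks in 535 of 32851. AP-1 was found in 13.5% of the KC-N-specific windows (9.88% to 18.2%), 6.73% of the Ly6CLo-RM-specific windows (4.90% to 9.18%) and 7.81% of all windows. IRF was found in 12.7%, 6.92% and 8.56%, C/EBP in 12.7%, 8.41% and 10.8%, and RBPJ in 30.1%, 24.1% and 25.6%. PU.1 and ETS was found in 6.18%, 7.85% and 3.20%, RUNX in 6.18%, 9.53% and 5.27%, and KLF and SP in 45.9%, 58.7% and 35.7%. Windows with a KC-N peak shared with Ly6CLo-RM held AP-1 in 4.74%, IRF in 6.76%, PU.1 and ETS in 3.77%, RUNX in 3.46% and KLF and SP in 69.9%, so for KLF and SP both list-specific sets lay below the shared windows and above all windows. NRF2 and MAF was found in 15.4%, 15.5% and 12.4% of the KC-N-specific, Ly6CLo-RM-specific and all windows. The E-box, EGR and CRE motifs were each in under 2% of these sets. Windows with a shared KC-N peak held CRE in 4.02% and the E-box in 2.25%. The median GC content was 54.7% in KC-N-specific, 59.3% in Ly6CLo-RM-specific, 62.0% in shared and 52.7% in all windows, and the part of base composition in these shares was not tested. A match is a description of letters and shows no binding.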

How the data were processed

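ATAC-seq measured open chromatin in 12 libraries of 6 groups, 2 libraries each. Each group has 1 peak list, which the authors deposited with IDR (irreproducible discovery rate) in its name. Peak signal in the deposited lists is the authors' normalized tag count, and the deposited score is the authors' whole-number value per peak; both served to rank and describe peaks within a list. Per the submitters' processing notes, the tools were DESeq2, HOMER and Bowtie2 (no version or role stated) and the builds mm10 and GRCm38. Read filters, any transposase shift and library depth: not given in the sources used here.

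With 1 list per group there is no replicate error and no test. Peaks of KC-N and Ly6CLo-RM were compared by the distance of their centres (1000 bp), as deposited and with the longer list reduced to its best-scored peaks. A further list holds a peak if it has a centre within 1000 bp. Wilson intervals (95%) cover counting error only. Shared peaks were weighted to the specific peaks' 10 score classes. Genes came from the RefSeq table of GRCm38.p6 (21887 protein-coding genes): a peak went to the gene around its centre (if several, by the nearer end), otherwise to the nearest within 100 kb. Starts came from the RefSeq promoter table for 17492 genes, where a start can lie inside the gene, as at Itga9. For the other 4395 both gene ends were used. Of 340 listed symbols, 339 were in the gene table. No peak was removed for lying in repeated sequence, and exons, introns and peak sequences were not analysed here.

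The peaks compared, the gene lists and the motifs were chosen with earlier results of these data known. Named genes are the 12 with the most specific peaks per side, 12 markers, from each gene list up to 4 genes that differed most, the 5 highest peaks and 3 longest runs per side (gaps up to 25 kb), and 4 promoters per side; 1 gene that this rule names is not reported here. Alternatives were equal length, the best-scored 50%, 500 and 2000 bp, no overlap by 1 bp, a 20 kb gene window, the nearest gene start and 2.5 kb from a start; equal length by tag count was added after seeing the data. The functions were tested on simulated lists. Computations used matplotlib 3.10.9, scipy 1.17.1, pandas 2.3.3 and numpy 2.4.6 in Python 3.11.15.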

Additional observations from a re-analysis of the deposited data

How the results depend on the processing

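Of the counts of list-specific peaks, 10033 of KC-N and 13887 of Ly6CLo-RM, only the best-scored 50% moved them by over 1.5 times, to 1988 and 2184, since fewer peaks were counted. The share of KC-N-specific peaks in KC-H was 91.5% there, 80.4% at 500 bp and 82.8% without overlap, against 77.7%. The share of Ly6CLo-RM-specific peaks in Ly6CHi-RM was 84.7%, 75.0% and 77.5% under these, and 74.2% at equal length (74.6% ranked by tag count), against 72.2%. Shares near gene starts were 8.53% at 500 bp, 13.8% without overlap and 11.1% within 2.5 kb for KC-N, and 10.7%, 14.6% and 15.0% for Ly6CLo-RM. Kupffer cell identity genes had 12 more KC-N-specific peaks in the best-scored 50%, against 35. For classical monocyte genes the difference, KC-N minus Ly6CLo-RM, was -3 there and -9 at equal length by tag count, against -16. The same difference changed sign for transcription factor genes at equal length (1, and 11 by tag count, against -10), integrin genes by nearest start (-8 against 3), chemokine ligand genes in the best-scored 50% (1 against -5), neutrophil genes at equal length (1 against -3) and Cd9 in the best-scored 50% and within 20 kb (-1 in both, against 3). Fewer peaks were counted in the best-scored 50%, but more at 500 bp (11635 of KC-N and 15687 of Ly6CLo-RM) and without overlap (13631 and 17723). The cause of these shifts was not tested. Of 22 gene lists with a difference of at least 3, 17 kept their sign under all 8 alternatives. Of 208 list values under these alternatives, 55 moved in size (19 of them in the best-scored 50%) and 5 changed sign. No paired analysis was possible because each list pools both libraries, and no library could be left out. Library depth is unknown, so a missing peak may be a peak below the calling limit.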
